A study of Bos taurus with 57 samples.

Results

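The genes described here are 100 of the 24616 genes counted in 57 RNA-seq libraries from bull calves, those with the strongest shared expression in the anterior pituitary and the testes relative to the arcuate nucleus. They were chosen on measured values. For each gene, CPM values (the gene's count scaled to the library's total, so that libraries of unequal depth can be compared) were averaged over the high plane libraries of each tissue, 0.5 CPM was added, and the smaller of the anterior pituitary and testes values was divided by the arcuate nucleus value. The 100 genes with the largest ratio were kept, among genes whose anterior pituitary and testes values differed by less than 4-fold. Their tissue levels on the high plane are therefore a description with no test, and members are referred to below by their rank in this ratio, from 1 to 100.

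The calves were male Holstein Friesians reared either on a high plane of nutrition, with an overall growth of 1.08 kg/day, or on a low plane, with 0.5 kg/day, and were slaughtered at 126 days of age. Pieces of frozen tissue, unsorted by cell type, were sequenced as single-end mRNA libraries. The high plane was represented by 9 anterior pituitary, 10 testes and 10 arcuate nucleus libraries, and the low plane by 10, 8 and 10. Each library came from 1 tissue of 1 calf, and the labels do not say which libraries of different tissues share a calf. Total counts ran from 898979 to 32009433 reads, both in the high plane arcuate nucleus, and a count of 3 reads corresponded to between 0.0937 and 3.34 CPM in that group.

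The 3 tissues form 1 endocrine axis. Neurons of the arcuate nucleus help to govern the release of gonadotrophin-releasing hormone. The anterior pituitary answers with luteinising hormone and follicle-stimulating hormone, and these act on the Leydig and Sertoli cells of the testes. The pituitary and the testes thus are a hormone-secreting gland and an organ with a steroidogenic and a germ cell compartment, whereas the arcuate nucleus is nervous tissue. The files give Ensembl identifiers only, and 0 of the 24616 could be paired with a symbol here, so no member's function is stated and the tissues could not be checked against named markers. In bulk tissue, fewer cells of a type and less RNA per cell cannot be told apart.

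The tissue labels were instead checked with the 100 genes most restricted to each tissue by the same high plane means. In the low plane libraries, which did not choose them, the pituitary-restricted genes summed to between 92647 and 371140 CPM in the anterior pituitary. The testes-restricted genes summed to between 21454 and 42630 CPM in the testes, and the arcuate-restricted genes to between 29085 and 64194 CPM in the arcuate nucleus. None of the low plane libraries carried the profile of another tissue in place of its own.

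Several libraries stood apart before any comparison. The first dimension of variation, over 12247 to 13011 genes other than the members, held 87.5% of the variance between anterior pituitary libraries, 83.7% of it for testes and 73.7% for arcuate nucleus. A score for each library averaged the log2 CPM of 200 genes other than the members. They had the largest slopes, summed over both remaining tissues, on the first axis of a multidimensional scaling of the libraries. That axis was computed separately from the dimension above, so the variance shares do not describe it. In the anterior pituitary the score separated A57, A51, A18, A10 and A47, at 4.18 to 4.42 against 3.01 to 3.66 in the others. Among testes libraries it separated B42, B21, B2 and B15, and among arcuate nucleus libraries C6 and C33. Genes' slopes on the scaling axis correlated at 0.957 to 0.973 between tissues over 13388 genes, a description across genes that are not independent replicates. The members were also correlated with the score. Within the anterior pituitary 33 members had a correlation with the score above 0.7 and 24 below -0.7, against 32.7% and 38.5% of all genes tested. In the testes these were 24 and 21 members, against 26.7% and 37.5%. In the arcuate nucleus they were 1 and 5 of 79 members, against 13.1% and 37.8%. Of the members, 15 lay above 0.7 in both anterior pituitary and testes, 20 below -0.7 in both, and 0 beyond 0.7 in opposite directions.

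In the arcuate nucleus, C44 on the high plane and C8 on the low plane stood apart on the members themselves. The members summed to 1747 CPM in C44, against 506 to 741 CPM in the other 9 high plane libraries. They summed to 1685 CPM in C8, against 523 to 690 CPM in the other 9 low plane libraries. In C44, 80 of the 100 members were above all 18 arcuate nucleus libraries other than these 2, and in C8 60 were. The testes-restricted genes reached 7215 CPM in C44, against 375 to 1131 CPM in the rest of its group. Over the median of that rest, the excess in C44 equalled 15% of the high plane testes level for the testes-restricted genes and 15.9% of it for the members. The members' excess equalled 21.6% of their anterior pituitary level. The pituitary-restricted genes in C44, at 1097 CPM, lay within the 562 to 1155 CPM of the rest, with an excess of 0.127%. The arcuate-restricted genes, at 42294 CPM, lay within 35828 to 64110 CPM. C8 was different. Its testes-restricted genes were at 764 CPM, against 193 to 607 CPM in the rest. Over the median of the rest, their excess equalled 1.24% of the low plane testes level. Its pituitary-restricted genes, at 4075 CPM against 514 to 2292 CPM, had by that measure an excess of 1.15% of the anterior pituitary level. The excess of its members was 21.4% of their anterior pituitary level and 16.1% of their testes level. The arcuate-restricted genes summed to 29085 CPM in C8, below the 37797 to 64194 CPM of the rest of its group. What part these RNAs have in the arcuate levels of the members was not tested, and the results that rest on these libraries are given with and without them.

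The shared pattern was shallow next to the other pairs of tissues. The members' ratios ran from 4.37 to 25, with a median of 5.85, and 121 genes had a ratio above 4. By the same rule, arcuate nucleus and anterior pituitary over testes gave a largest ratio of 308, a ratio of 13 at rank 100 and 423 genes above 4. For the arcuate nucleus and testes over anterior pituitary these were 173, 7.18 and 288. At the limit, the members ranked 98 to 100 had ratios of 4.40, 4.39 and 4.37, and the next 3 genes 4.35, 4.29 and 4.27, so the edge of the group is not a step.

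On the high plane the members' mean levels ran between 2.20 and 651 CPM in the anterior pituitary (median 21.8), between 2.79 and 1451 CPM in testes (median 24.3), and between 0.0452 and 97.9 CPM in arcuate nucleus (median 2.33). Of the 100, 58 were higher in the testes and 42 in the anterior pituitary, and 49 were within 1.5-fold of each other in both tissues. A few abundant genes carried much of the total. The 5 most abundant members made up 35.4% of the members' sum in anterior pituitary and 40.1% in testes. The member ranked 39 was the most abundant by the smaller of its 2 levels, with 288 to 891 CPM in anterior pituitary (median 655), 988 to 2069 CPM in testes (median 1434) and 39.2 to 330 CPM in arcuate nucleus (median 59). Its groups did not overlap with the exception of the library at 330 CPM.

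**Figure D1:**
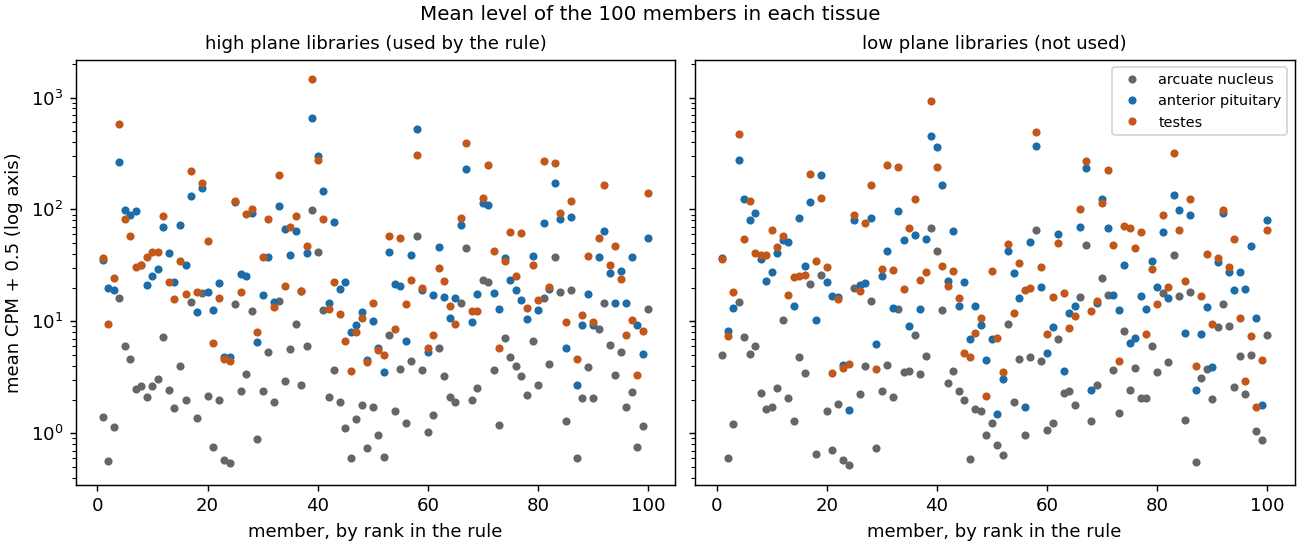
Mean CPM + 0.5 of the 100 members (log axis) by rank, in the high plane libraries that chose them and in the low plane libraries that did not, with 1 point per member and tissue. Most anterior pituitary and testes points lie close together and above the arcuate nucleus points in both panels, and on the low plane some members of high rank number drop to the arcuate nucleus level in 1 of the 2 tissues.

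ENSBTAG00000003375 (rank 1) had the largest ratio, 25. On the high plane its CPM ran from 15.7 to 64.2 in anterior pituitary (median 28.6), between 18.2 and 68.8 in testes (median 33.3) and between 0.208 and 3.5 in arcuate nucleus (median 0.613). The anterior pituitary and testes ranges overlapped, and all libraries of both were above the highest arcuate nucleus library, which was C44. On the low plane the anterior pituitary and testes libraries ran from 20.1 to 87.7 and from 12.5 to 73.6 CPM. The arcuate nucleus libraries had a median of 0.929 CPM, but 36.2 CPM in C8, inside the range of the other tissues.

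ENSBTAG00000018843 (rank 2) was near absent from the arcuate nucleus. Its high plane CPM there had a median of 0 and a maximum of 0.425, in C44. The anterior pituitary libraries held 3.19 to 71.5 CPM (median 13.6), those of testes 3.64 to 17.8 CPM (median 7.61). The member ranked 4 showed the pattern at a higher level, with 175 to 448 CPM in anterior pituitary (median 234), 415 to 825 CPM in testes (median 584) and a median of 8.78 CPM in the arcuate nucleus, where 1 library reached 70.3 CPM. The member ranked 3 was less even among libraries, with 0.0767 to 45.8 CPM in the high plane testes around a median of 30.7.

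The 28 low plane libraries took no part in choosing the members, and the tissue comparison was tested there with edgeR's quasi-likelihood test over 15808 genes. A gene was called higher at a Benjamini-Hochberg false discovery rate (FDR) under 0.05 with a log2 fold change above 1. All 100 members were tested. Of these, 99 were called higher in the anterior pituitary than in the arcuate nucleus, where 12.7% of all genes tested were. In the testes 94 were called higher, against 21.1% of all genes, and 93 were called in both, against 6.71%. The members' median log2 fold change was 3.21 for anterior pituitary (range 0.87 to 6.40) and 3.06 for testes (0.40 to 7.71), and that of all genes tested was -0.0044 and -0.024. Without C8 96 members were called in both, against 7.25% of genes, and without the 7 low plane libraries apart on the first dimension 97 were, against 6.91%.

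Complete separation was also counted. In 51 members every low plane anterior pituitary and testes library was above every arcuate nucleus library, against 2.48% of the genes tested, and without C8 this held for 69 members, against 3.37%. ENSBTAG00000018843 (rank 2) was 1 of the 51. On the low plane its anterior pituitary libraries held 1.5 to 24.1 CPM and its testes libraries 2.28 to 21.7 CPM, and its highest arcuate nucleus library was at 0.661. Its log2 fold changes were 6.17 (SE 0.72, FDR 2.6e-08) and 5.81 (SE 0.72, FDR 5.5e-08). For ENSBTAG00000003375 (rank 1), with C8 inside the range, they were 3.24 (SE 0.69, FDR 0.000247) and 3.0 (SE 0.70, FDR 0.000522).

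**Figure D2:**
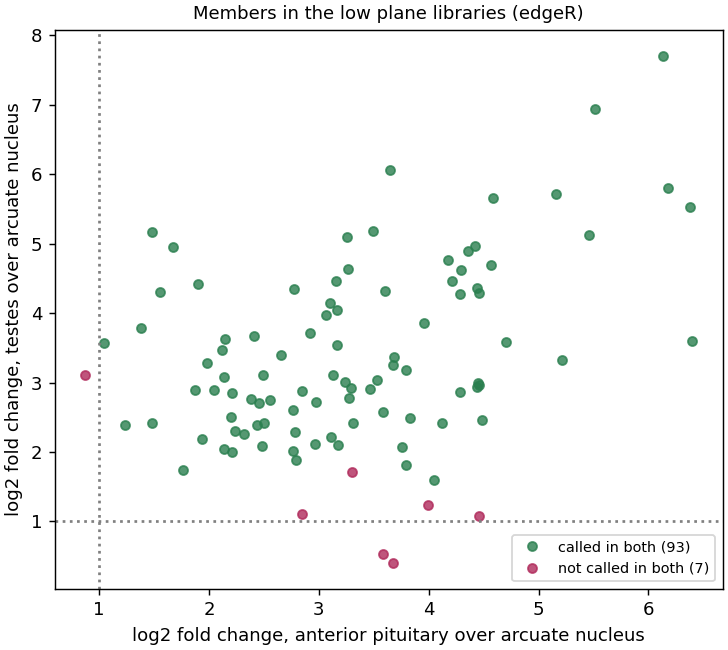
Log2 fold changes of the 100 members in the low plane libraries, anterior pituitary over arcuate nucleus on the horizontal axis and testes over arcuate nucleus on the vertical, with dotted lines at the fold of 1 needed for a call. The 93 green points passed in both, 6 of the 7 red points are low on the testes axis, and 1 is low on the anterior pituitary axis.

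Of the 7 members not called in both, 6 failed in the testes. They are ranked 41, 49 and 95 to 98, and their log2 fold changes over the arcuate nucleus were 0.40 to 1.71, with FDR from 0.073 to 0.692. The member ranked 96 ran from 0 to 9.87 CPM in the low plane testes (median 0.410), from 0.485 to 27.9 CPM in the anterior pituitary (median 23.8), and from 0 to 6.87 CPM in the arcuate nucleus (median 1.48). The member ranked 41 ran from 4.17 to 80.5 CPM in the low plane testes, with a median of 18.8 CPM, against a median of 88.1 CPM on the high plane. In both members the low plane testes median lay far below that of the anterior pituitary, and single testes libraries differed widely. All 6 correlated negatively with the library score, at -0.972 to -0.814 among anterior pituitary libraries and -0.966 to -0.651 among testes libraries, and its part in their levels was not tested. The seventh, ENSBTAG00000008216 (rank 63), failed in the anterior pituitary, with a log2 fold change of 0.87 (SE 0.34, FDR 0.034). It is described with the diet comparison below.

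Between the testes and the anterior pituitary of the low plane, 30 members were called higher in the testes and 21 lower at an FDR under 0.05, where 30.4% and 25.1% of all genes were. These shares are near those of all genes, although the rule had kept the high plane means of each member within 4-fold. The members' log2 differences ran from -3.37 to 3.69. On the low plane 15 members had means that differed by 4-fold or more, 9 of them higher in the testes and 6 higher in the anterior pituitary. The same rule run on the low plane libraries returned 65 of the 100 members, and 78 were among its first 200 genes. The median ratio of the members on the low plane was 5.10, and 69 members had a smaller ratio there than on the high plane. A fall in the ratio is built into the choice, because the members were selected for a large value on the high plane. Without C44 and C8 the median ratio was 6.57 on the high plane and 5.74 on the low.

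In the summed level of the members, every anterior pituitary and testes library was above every arcuate nucleus library, while anterior pituitary and testes overlapped. The sum ran from 4774 to 6552 CPM in the high plane anterior pituitary (median 5423) and from 4436 to 6743 CPM on the low plane (median 5011). In the testes it ran from 6904 to 8526 CPM (median 7370) and from 5719 to 8816 CPM (median 6421). In the arcuate nucleus it ran from 506 to 1747 CPM (median 577) and from 523 to 1685 CPM (median 612), and without C44 and C8 no arcuate nucleus library passed 741 CPM. The diets overlapped in each tissue. The low plane mean was 0.933 of the high plane mean for anterior pituitary, 0.913 for testes and 1.01 for arcuate nucleus, the last becoming 1.21 without C44 and 0.859 without C8. No test is given for this sum, since the members were chosen on the high plane libraries.

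**Figure D3:**
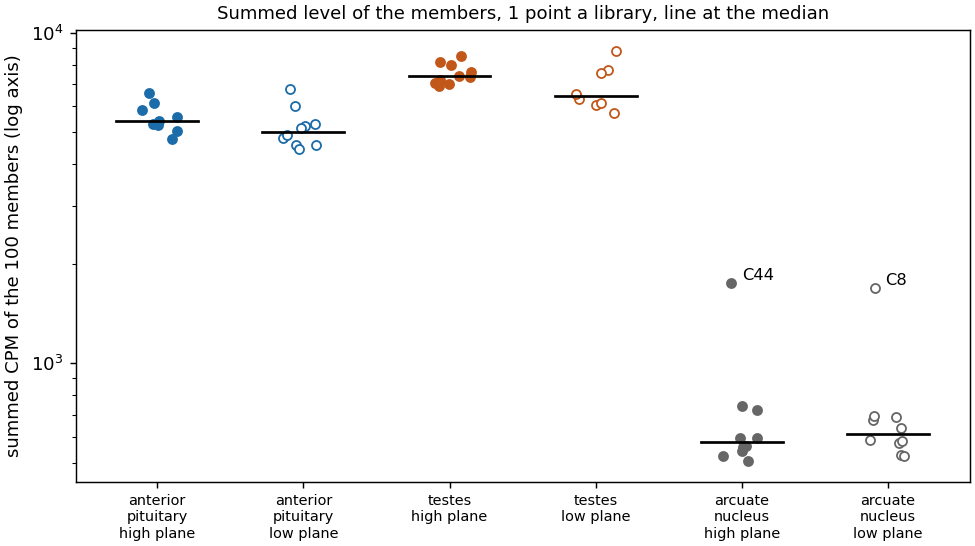
Summed CPM of the 100 members (log axis) in each of the 57 libraries, by tissue and plane of nutrition, with a line at the median of each group. Both diets overlap in each tissue, all anterior pituitary and testes libraries are above 4436 CPM, and the arcuate nucleus libraries C44 (1747 CPM) and C8 (1685 CPM) lie above the other 18.

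The diets were compared within each tissue, low over high plane, to ask whether the members respond to nutrition. These comparisons use the high plane libraries that chose the members, which favours lower values on the low plane in the anterior pituitary and the testes, so the counts are given beside the shares of all genes with that limit. In the anterior pituitary, 14411 genes were tested and all 100 members were among them. At an FDR under 0.05, 9 members fell and 0 rose on the low plane, where 0.493% of all genes fell and 0.0694% rose. The 9 fell by 1.43 to 2.50 on the log2 scale, and they are ranked 35, 51, 56, 63, 68, 75, 76, 90 and 99. The median over all 100 members was -0.16 against 0.017 for all genes, so most members were not among the larger changes. The 100 genes of the arcuate nucleus and anterior pituitary, which the same kind of rule chose partly on the same libraries, had 0 called in this comparison and a median of 0.050, and the difference between the lists was not tested.

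ENSBTAG00000001343 (rank 51) had the smallest p-value. It ran from 2.66 to 9.72 CPM in the high plane anterior pituitary (median 4.15) and from 0.247 to 2.25 CPM on the low plane (median 0.795). Every low plane library was below every high plane library, and the log2 fold change was -2.50 (SE 0.37, FDR 0.0030). In the testes the same gene ran from 2.89 to 10.2 CPM on the high plane (median 4.96) and from 2.45 to 9.52 CPM on the low plane (median 7.78), where the ranges overlapped and the log2 fold change was 0.32 (SE 0.30, FDR 0.415). The low plane arcuate nucleus libraries ran from 0.0637 to 0.577 CPM, and the low plane anterior pituitary was still called above them, with a log2 fold change of 1.90 (SE 0.41, FDR 0.000326).

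ENSBTAG00000008216 (rank 63) ran from 7.74 to 27.3 CPM in the high plane anterior pituitary (median 13.2) and from 0.865 to 7.89 CPM on the low plane (median 2.32). Only the highest low plane library reached the lowest high plane library. The log2 fold change was -2.43 (SE 0.38, FDR 0.0034). The low plane median of 2.32 CPM lay within the arcuate nucleus range of that plane, 0.870 to 2.88 CPM, which is the value behind its failure in the tissue comparison. In the testes it ran from 15.6 to 39.3 CPM and from 10.0 to 27.7 CPM, with a log2 fold change of -0.44 (FDR 0.211).

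The most abundant of the 9 was the member ranked 35, which ran from 22.1 to 67.1 CPM on the high plane (median 29) and from 2.38 to 23.3 CPM on the low plane (median 6.59) in the anterior pituitary. Its log2 fold change was -2.26 (SE 0.41, FDR 0.010) there and -0.10 (SE 0.25, FDR 0.766) in the testes, where its medians were 63.7 and 74.0 CPM. The members ranked 56, 68 and 75 fell by 2.43, 2.37 and 2.02, and those ranked 76 and 90 by 1.58 and 1.43. Over all 100 members, groups without any overlap were found for 2, both lower on the low plane, against 0.16% of all genes. In the testes 0 members had groups without overlap in either direction, against 0.0457% of genes below and 0.183% above.

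**Figure D4:**
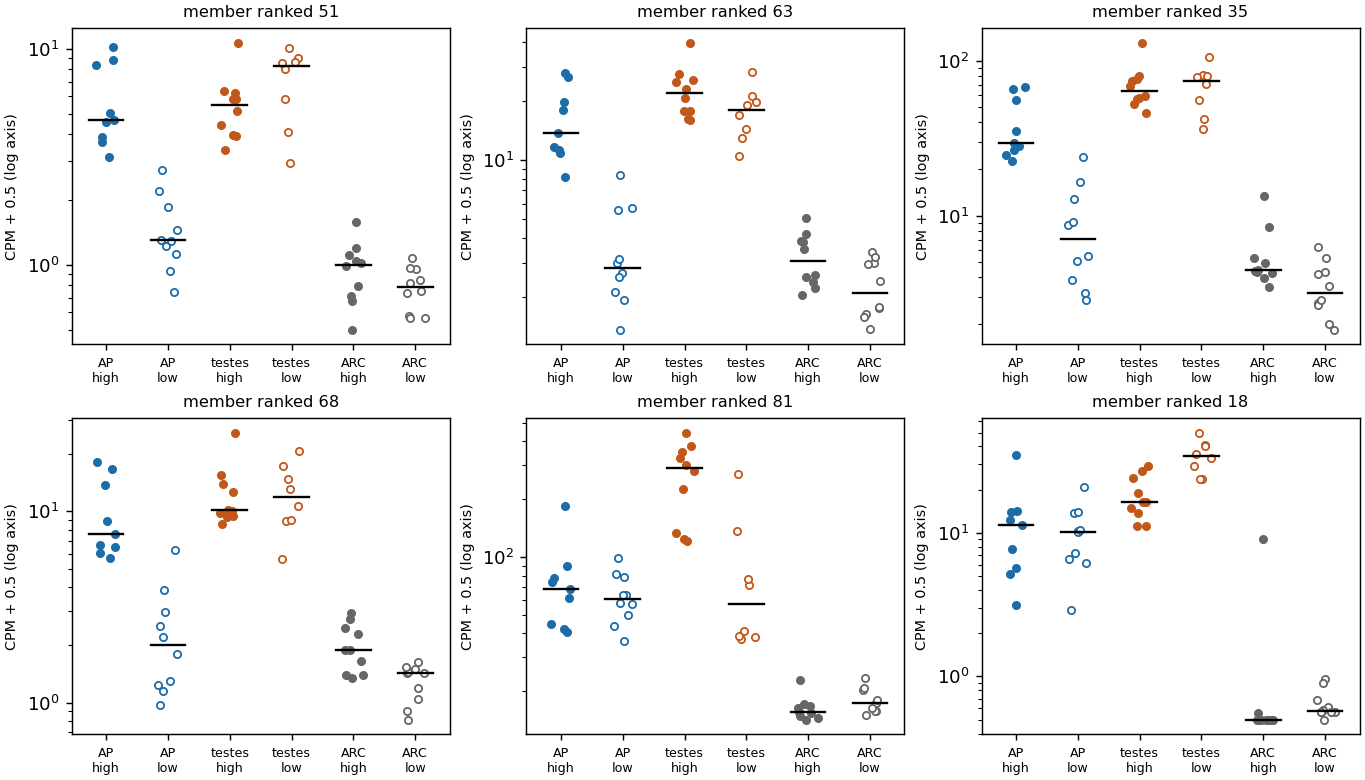
CPM + 0.5 (log axis) in every library for 4 members called lower on the low plane in the anterior pituitary (ranks 51, 63, 35 and 68) and 2 members called in the testes (rank 81 lower, rank 18 higher), with filled points for the high plane, open points for the low plane and a line at each median. AP is the anterior pituitary and ARC the arcuate nucleus. In the first 4 panels the low plane anterior pituitary points lie nearly all below the high plane points while the testes points overlap.

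The 9 members did not move alike in the other tissues. In the testes only the member ranked 99 was called, also lower. The 6 of the 9 that passed the filter in the arcuate nucleus were not called there, and 5 of the 6 had a negative log2 fold change. Apart from the member ranked 99, the other 8 varied together among libraries of the same diet. With diet means removed, the correlation of log2(CPM + 0.5) over the 28 pairs of these 8 had a median of 0.857 over the 19 anterior pituitary libraries (range 0.530 to 0.961) and of 0.837 over the 18 testes libraries (0.491 to 0.937). With the member ranked 99 included, the 36 pairs of the 9 had medians of 0.832 and 0.789, and lowest values of -0.383 and -0.679. Over all 4950 pairs of members the medians were 0.158 and 0.0582. The 8 correlated positively with the library score, at 0.518 to 0.803 among anterior pituitary libraries and 0.702 to 0.863 among testes libraries, and after its removal the medians were 0.833 (range 0.241 to 0.957) and 0.616 (-0.231 to 0.767). In the arcuate nucleus the 8 had a median correlation of 0.607 and all members one of 0.434, or 0.534 and 0.506 after removal of the score, where 80 members stood above the other libraries in C44 and 60 in C8. These correlations share libraries and depth and are given as a description.

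The anterior pituitary calls were also made with the library score as covariate and without the 5 libraries apart on the first dimension, 3 of the high plane and 2 of the low. All 9 members stayed called in both, with log2 fold changes of -2.31 to -1.29 beside the score. More members and more genes were then called. With the score 15 members fell and 0 rose, while 362 and 360 of 14411 genes did. Without the 5 libraries 18 members fell and 2 rose, while 429 and 404 of 14563 genes did. With the log2 total as covariate 7 of the 9 stayed called, and the members ranked 75 (FDR 0.0504) and 90 (FDR 0.056) did not.

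In the testes, 15310 genes were tested, 5 members rose and 3 fell on the low plane, where 4.75% of all genes rose and 2.16% fell. The shares of the members are close to those of all genes. The median log2 fold change was -0.10 for the members and -0.014 for all genes. ENSBTAG00000034045 (rank 18) had the smallest p-value of those that rose, from 10.7 to 28.9 CPM on the high plane (median 15.8) to 23.2 to 49.4 CPM on the low plane (median 33.9). The ranges met in a narrow stretch, and the log2 fold change was 0.90 (SE 0.21, FDR 0.0248). In the anterior pituitary its medians were 10.9 and 9.70 CPM. ENSBTAG00000020522 (rank 85) rose by 1.23 (SE 0.30, FDR 0.0272), from 4.34 to 14.8 CPM (median 8.95) to 8.67 to 41.1 CPM (median 17.7). The members ranked 32, 61 and 74 rose by 1.07, 1.17 and 0.99.

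ENSBTAG00000024726 (rank 99) fell in the testes from 5.23 to 10.7 CPM (median 7.44) to 1.43 to 7.45 CPM (median 3.58), with a log2 fold change of -1.02 (SE 0.26, FDR 0.031). In the anterior pituitary it fell from 2.25 to 7.69 CPM (median 5.19) to 0.191 to 4.55 CPM (median 1.06), with a log2 fold change of -1.85 (SE 0.42, FDR 0.0498), and it was the only member called in both tissues. Its anterior pituitary call was lost with RLE size factors (FDR 0.0508) and without a filter (FDR 0.0785). ENSBTAG00000047088 (rank 29) fell in the testes from a median of 6.52 to one of 2.93 CPM, with a log2 fold change of -1.28 (SE 0.34, FDR 0.034). The member ranked 81 had the largest fall of the 3, from 120 to 443 CPM (median 290) to 36.9 to 268 CPM (median 56.1), with a log2 fold change of -1.65 (SE 0.44, FDR 0.034). Its medians in the anterior pituitary were 67.5 and 59.7 CPM.

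The testes calls changed with the libraries kept and with depth as a covariate. The median total was 18655866 reads on the high plane and 14180871 on the low. Of the 4 testes libraries apart on the first dimension, 3 were of the low plane and 1, B42, of the high. B26 and B20, the next in the library score and above its widest gap in the testes, were also of the low plane. They were kept in the fit without the 4. High scores and the low plane thus largely went together in the testes. With the log2 total as covariate 0 members and 2 of all genes were called, and without the 4 libraries 0 members and 58 genes. The estimates kept their direction. That of the member ranked 18 was 0.80 and 0.72 under these settings, that of the member ranked 29 -1.23 and -1.17, and that of the member ranked 81 -2.25 and -2.14. Without B42 alone all 8 stayed called, and 14 members rose and 9 fell, while 3233 and 1367 of 15260 genes did. With the library score as covariate 0 members rose and 11 fell, while 194 and 465 of 15310 genes did. Of the 8 members above, those ranked 81 and 99 stayed called beside the score.

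**Figure D5:**
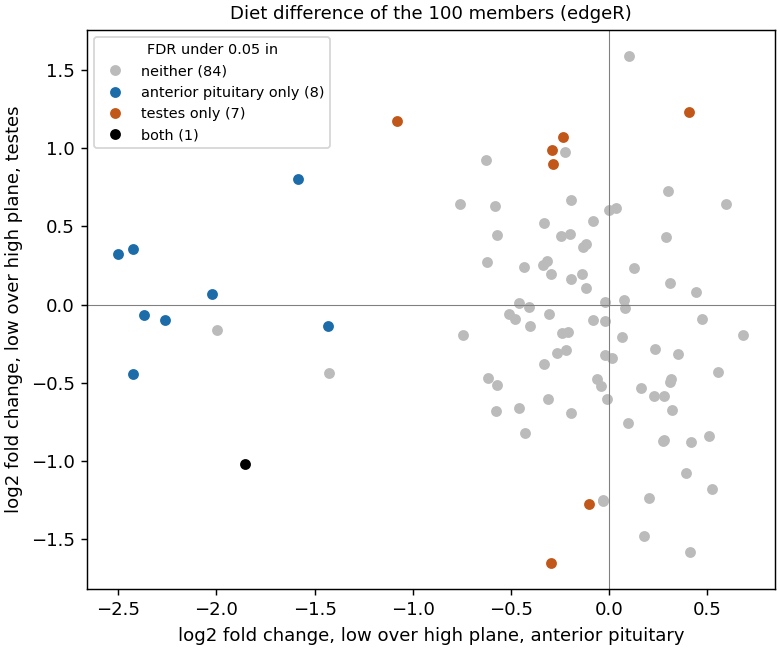
Log2 fold change of the low over the high plane for the 100 members, in the anterior pituitary on the horizontal axis and in the testes on the vertical, coloured by the tissue in which the FDR was under 0.05. The 8 members called in the anterior pituitary alone lie to the left, at -2.50 to -1.43, and between -0.44 and 0.80 on the testes axis.

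Whether the diet difference itself differed between the tissues was tested as the interaction of diet and tissue, testes minus anterior pituitary, over 16027 genes. It was called with a higher value in the testes for 14 members and with a lower value for 0, where 3.09% and 0.593% of all genes were. The test uses the high plane means on which the members were chosen, also for their likeness between the 2 tissues, so this count carries the same limit as those above. The 14 differences ran from 0.92 to 2.88 on the log2 scale. They include 8 of the 9 members that fell in the anterior pituitary, all but the one ranked 99. The largest was that of ENSBTAG00000001343 (rank 51), at 2.88 (SE 0.48, FDR 0.000865), followed by the member ranked 56 at 2.83 (SE 0.48). For ENSBTAG00000008216 (rank 63) it was 2.04 (SE 0.45, FDR 0.0082).

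The other 6 members called in the interaction, ranked 6, 14, 28, 50, 58 and 74, were lower on the low plane in the anterior pituitary by estimates of -0.76 to -0.19 and higher in the testes by 0.63 to 0.99. Of these only the member ranked 74 was called within a tissue, in the testes. With the library score as covariate, the testes estimates of those ranked 6, 28, 50 and 58 were smaller, at 0.24, 0.29, 0.47 and 0.11. That of the member ranked 14 was 0.73, against 0.64 without the score. The part of the score in these interactions was not tested. The member ranked 58 is among the 5 most abundant. In the anterior pituitary it ran from 335 to 795 CPM on the high plane (median 496) and from 271 to 733 CPM on the low plane (median 288). In the testes it ran from 169 to 510 CPM (median 283) and from 117 to 726 CPM (median 537). The order of the tissues was thus reversed between the planes by their medians, although the ranges overlapped in each tissue. The low plane testes libraries with the higher scores, B21, B2, B15, B26 and B20, held 513 to 726 CPM. B50, B31 and B7 held 286, 376 and 117 CPM, and B42, of the high plane, 510 CPM. Among testes libraries the correlation of this member with the score was 0.69. The interaction of the member ranked 58 was 1.26 (SE 0.37, FDR 0.048).

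In the arcuate nucleus, 14757 genes were tested and 79 members passed the filter. By edgeR's quasi-likelihood test 0 members were called, and 0% of all genes rose and 0% fell. At an unadjusted p under 0.05 there were 9 members and 1464 genes, and DESeq2 called 0 members and 1 gene. In 1 fit over all 57 libraries 0 members and 123 genes were called, 29 higher and 94 lower, and the smallest FDR of a member was 0.058. The members' median log2 fold change was 0.067. It was 0.32 without C44 and -0.19 without C8, so that its direction was set by which of these 2 libraries was kept, and it was 0.0028 without C44, C8, C6 and C33.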

How the data were processed

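RNA was sequenced from dissected tissue of the arcuate nucleus region, the anterior pituitary and the testes, and the authors deposited for each of the 57 libraries raw read counts per Ensembl gene as whole numbers. Their processing notes name CASAVA 1.4, STAR, HTSeq and edgeR, with the build and annotation not given in the sources used here. Groups follow the labels, which keep A48 as a testes library although its header reads B48. The members and lists were chosen with earlier results of these data known. As 0 of 24616 identifiers matched the 37063 genes of the reference table, planned gene and marker lists were not applied. Named are members by rank, with at most 2 identifiers per direction and comparison, by ratio or smallest p-value.

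Counts were fitted in R 4.3.3 with edgeR 4.0.16 (default filter, TMM, quasi-likelihood test, Benjamini-Hochberg FDR), and alternatives with DESeq2 1.42.0 and limma 3.58.1. Levels and ratios were computed in Python 3.11.15. Each SE was derived from a fold change and its test statistic. The scripts were tested on simulated counts. Replicate libraries differed by more than sampling noise (smallest chi-square per degree of freedom 2.72). Intervals between libraries cover calves and handling together, and low totals limit precision, most of all in C22.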

Additional observations from a re-analysis of the deposited data

Results flagged for a closer look

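In groups of 8 to 10 libraries, the highest or lowest value was compared with Dixon's critical value for 12 measures, which are the members' sum, 3 tissue-restricted sums and the 8 members named by identifier. Of 72 group values 21 exceeded it. The 1 in 20 attached to that value holds for independent, normally distributed values. The CPM were not transformed, and the measures share libraries and, in the members' sum, genes, so the 21 have no chance share beside them. C44 accounts for 7 of the 21 and C8 for 5.

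In C44 the members summed to 1747 CPM and the testes-restricted genes to 7215 CPM. The members ranked 1, 2, 18, 85 and 29 were at 3.5, 0.425, 8.60, 4.42 and 1.34 CPM there. In C8 the members summed to 1685 CPM and the pituitary-restricted genes to 4075 CPM, and the members ranked 1, 2 and 29 were at 36.2, 0.661 and 1.19 CPM.

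In the anterior pituitary, A47 had the lowest sum of pituitary-restricted genes in its group (92647 CPM) and the highest level of the member ranked 1 (87.7 CPM). A11 held 71.5 CPM of the member ranked 2, A51 34.4 CPM of the member ranked 18, and A27 4.55 CPM of the member ranked 99. In the testes, B42 held 10.2 CPM of the member ranked 51 and 39.3 CPM of the member ranked 63, B7 21.7 CPM of the member ranked 2, and B49 1641 CPM of pituitary-restricted genes.

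The diet difference differed between testes and anterior pituitary, by the interaction in edgeR's quasi-likelihood test, for 14 members. All 14 were higher in the testes, where 3.09% of the 16027 genes tested were called higher and 0.593% lower. The high plane means in this test also chose the members, for their likeness between these tissues too. The differences in log2 units were 1.26 (rank 6), 1.45 (rank 14), 0.92 (rank 28), 2.22 (rank 35), 1.60 (rank 50), 2.88 (rank 51), 2.83 (rank 56), 1.26 (rank 58), 2.04 (rank 63), 2.36 (rank 68), 1.32 (rank 74), 2.14 (rank 75), 2.44 (rank 76) and 1.35 (rank 90).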

How the results depend on the processing

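No paired analysis was possible because the groups share no replicate numbers and the labels do not link libraries to calves. Alternatives that leave out C44, C8 or several libraries of the first dimension were chosen after seeing the data. Of the 231 alternative fits of single called or named members, 193 kept their side of the threshold, 38 lost the call and 0 changed direction. Most lost calls were in the testes diet comparison. There all 8 members lost it with the log2 total and without B42, B21, B2 and B15, and 6 of 8 with the score. The 231 include tissue fits of the members ranked 1 and 2, which all stayed, and interaction fits, which were not run under those settings. In the anterior pituitary, 81 of 14411 genes were called as reported. With CPM above 1 in every library 86 members were tested and 5 called (0 higher), where 61 of 10852 genes were. Of the 9 members called as reported, 4 passed that filter and all 4 stayed called. With the library score 15 were called (0 higher), where 722 of 14411 genes were. With limma voom and quality weights 25 were called (22 lower, 3 higher), where 1092 of 14411 genes were. Without A57, A51, A18, A10 and A47 20 were called (18 lower, 2 higher), where 833 of 14563 genes were. The number of members called was 7 with the log2 total (64 of 14411 genes). It was 8 with RLE size factors (84 of 14411 genes) and 8 without a filter (66 of 20737 genes). In the testes, 5 were called (3 higher) in 1 fit over all libraries, where 1109 of 16476 genes were. Without a filter 5 were called (3 higher), where 609 of 22408 genes were. With DESeq2 18 were called (11 higher, 7 lower), where 1972 of 15310 genes were. With limma 59 were called (30 higher, 29 lower), where 11146 of 15310 genes were. Without B42 23 were called (14 higher, 9 lower), where 4600 of 15260 genes were. With the log2 total 0 were called (2 of 15310 genes), and 0 without B42, B21, B2 and B15 (58 of 15641 genes). With the score 0 were higher and 11 lower, where 194 and 465 of 15310 genes were. With CPM above 1 in every library 91 members were tested. Of these 5 were higher and 5 lower, where 761 and 358 of 11705 genes were. In the interaction, 17 members were higher and 1 lower with DESeq2, where 880 and 211 of 16027 genes were. Without B42 20 were higher and 1 lower, where 1938 and 289 of 15990 genes were. Without a filter 10 were higher and 0 lower, where 310 and 69 of 22757 genes were. The rule returned 65 of the members with 0.1 CPM added, 65 on the low plane libraries, and 71 to 96 under its other alternatives except the low plane without C8, which gave 67. The causes were not tested. The tissue counts, the arcuate nucleus count of 0 and the summed level stayed within 1.5 times, or within 1 SD, under every alternative run. Members under a few CPM rest on few reads in shallow libraries, C22 most of all, where 73 of the 100 members had a read.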
